A study of Mus musculus with 10 samples.

Results

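The choroid plexus markers examined here are 10 genes, Ttr, Enpp2, Sostdc1, Kl, Folr1, Prlr, Otx2, Cldn2, Cldn1 and Calml4, out of 56884 genes in the count table. They were selected on 2 grounds, as named genes of choroid plexus epithelium and by their levels in these void and DHT mice, which were already known. Levels and fold changes between void and DHT mice are therefore given for them as a description, without p-values. All 10 passed the filter on low counts, which left 17622 genes. RNA-seq was performed on hippocampi of 10 female P301S mice (the PS19 line), which carry human mutant Tau driven by the mouse Prnp promoter, so every control mouse carries the transgene as well. At 6 months of age, 5 ovary-intact females received a subcutaneous implant with 10 mm of DHT (dihydrotestosterone, an androgen that aromatase cannot convert into estrogen), and 5 received a void implant without DHT. Tissue was taken after 12 weeks of treatment, at 9 to 9.5 months, and each mouse gave 1 library. The comparison of implants asked what elevated androgen does to gene expression in the tauopathy hippocampus of females.

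The choroid plexus is a fringe of vascularized tissue that hangs into the brain ventricles and lies against the hippocampus. Its cuboidal epithelium secretes cerebrospinal fluid, carries hormones and vitamins from blood into that fluid, and is joined by leaky tight junctions that differ from those of brain capillaries. Hippocampal neurons and glia express most of these markers weakly or not at all, whereas Enpp2 is also made by oligodendrocytes and Kl by some neurons.

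Libraries held 27188854 to 47113661 counts, and totals did not separate the groups (two-sided exact permutation test, p = 0.365, n = 5 per group). Hippocampal neuron markers were present at similar levels in both groups: the summed level of 7 of them was 689.9 to 959 CPM (the usual counts relative to library size, here scaled with TMM factors) with void and 717 to 953 CPM with DHT. The number after the letter S in the sample titles ran from 4 to 11 in void mice and from 18 to 23 in DHT mice, and whatever it records cannot be told apart from the implant.

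The upstream sequences of 2 markers, Kl and Cldn2, are shown because both held matches to a motif of steroid receptors, neither window overlapped an annotated exon, and the bases after both start sites were found in a GENCODE M21 transcript of the gene. RefSeq start site windows on GRCm38.p6 were found for 6 of the 10 markers (Kl, Calml4, Otx2, Prlr, Cldn1 and Cldn2; 11 windows, since Otx2 and Prlr have several start sites). Ttr, Enpp2, Sostdc1 and Folr1 were not matched. Each window was read over the 250 bases before the start site, on both strands. Capitals mark AGAACA or its reverse complement TGTTCT.
Kl, chr5:150952357-150952606, plus strand: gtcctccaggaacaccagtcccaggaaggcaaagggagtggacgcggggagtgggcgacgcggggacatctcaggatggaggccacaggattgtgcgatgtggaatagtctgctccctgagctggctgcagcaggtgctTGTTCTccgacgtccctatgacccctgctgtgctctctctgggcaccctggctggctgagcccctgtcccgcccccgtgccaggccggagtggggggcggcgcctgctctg
Cldn2, chrX:139800558-139800807, plus strand: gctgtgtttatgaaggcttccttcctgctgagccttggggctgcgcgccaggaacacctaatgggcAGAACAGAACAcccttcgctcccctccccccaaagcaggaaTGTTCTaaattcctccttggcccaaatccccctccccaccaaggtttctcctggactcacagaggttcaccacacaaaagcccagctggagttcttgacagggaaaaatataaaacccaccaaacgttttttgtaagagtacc

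Cldn2 held 3 matches, beginning 184, 179 and 143 bases before its start, the first 2 of them overlapping, and Kl held 1, beginning 111 bases before its start. Matches to AGAACA were also found for Otx2 and Prlr, in 1 window each. These are not shown, because that Otx2 window overlapped an exon and the bases after that Prlr start were not matched to a GENCODE M21 transcript. That makes 4 of 11 marker windows, against 16.1% of all 32851 windows. GGATTA (reverse complement TAATCC), which OTX proteins bind, was in 1 of the 4 windows of Otx2 and in no other marker window, against 6.25% of all windows. AGGTCA (reverse complement TGACCT), a motif of many nuclear receptors, was in 0 of the 11 windows, against 14.0% of all. These matches describe letters in a window and show no binding.

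Across the 10 markers, DHT mice were higher than void mice, and void mice differed from each other far more than DHT mice did. The summed level of the markers was 356 CPM in void replicate 11, 386 in void replicate 5, 906 in void replicate 10, 1661 in void replicate 4 and 3119 in void replicate 9. With DHT it was 5418 CPM in replicate 1, 3902 in replicate 2, 4000.1 in replicate 3, 3716 in replicate 5 and 4111 in replicate 6. The groups did not overlap for this sum, but void replicate 9 lay nearer to the lowest DHT mouse than to the next void mouse. The highest void mouse was 8.76-fold above the lowest, and the highest DHT mouse was 1.46-fold above the lowest. Depth did not follow this order, as void replicates 11 and 9 were at the opposite ends of the void group with 33805888 and 32844884 counts. The markers together made up 0.0352% to 0.306% of all counts in void mice and 0.370% to 0.545% in DHT mice. In bulk tissue, fewer cells of a type and less RNA per cell cannot be told apart. The labels do not record how much choroid plexus was taken along with each hippocampus, and its part in these levels was not tested.

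**Figure D1:**
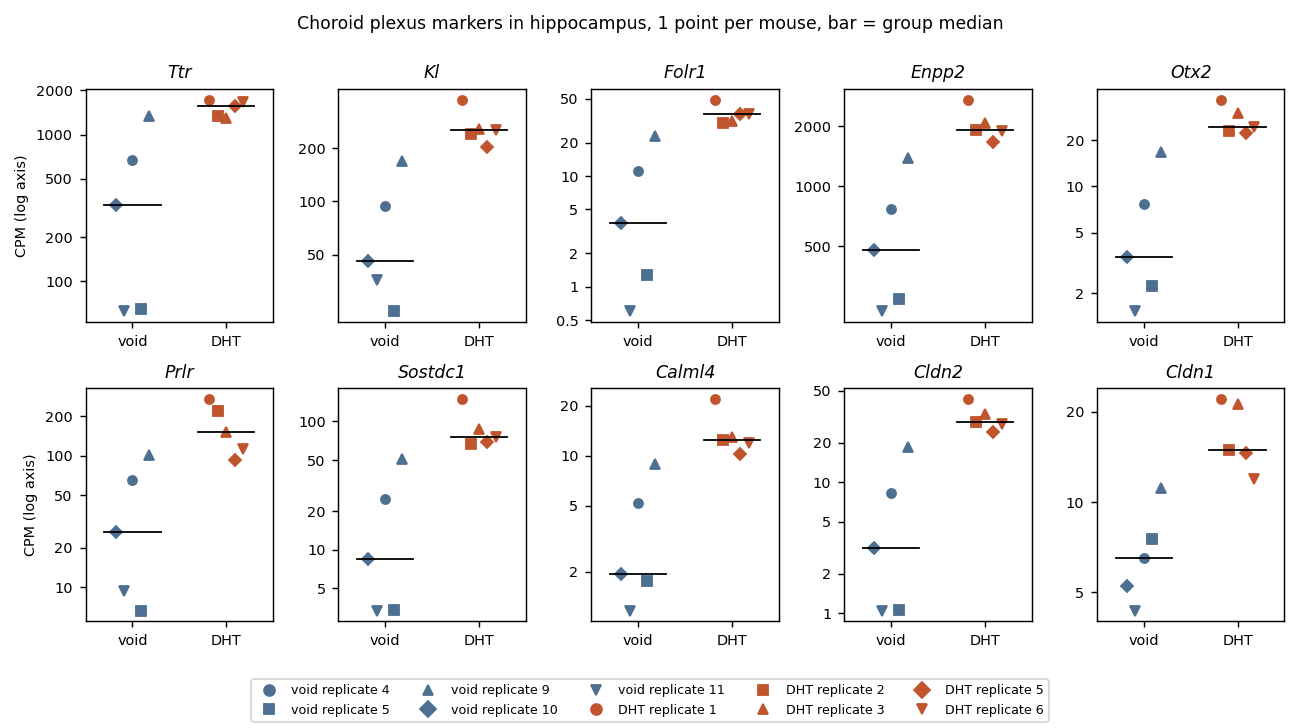
CPM of each of the 10 markers (log axis, a different range in each panel) in 5 void and 5 DHT mice; each point is 1 mouse, each mouse has its own symbol and the bar is the group median. Void mice spread over up to 38.4-fold (Folr1), while DHT mice spread over at most 2.91-fold (Prlr), and void replicate 9 is the highest void mouse in all 10 panels.

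The secreted markers include the most abundant ones, Enpp2 and Ttr. Values are listed for void replicates 4, 5, 9, 10 and 11 and then for DHT replicates 1, 2, 3, 5 and 6. Ttr encodes transthyretin, which the choroid plexus secretes to carry thyroxine and retinol in cerebrospinal fluid. Its level was 670.1, 65.1, 1335, 329 and 62.5 CPM with void and 1728, 1342, 1289, 1569 and 1665 CPM with DHT. Void replicate 9 thus stood above 1 DHT mouse and the groups overlapped and void replicates 5 and 11 were the lowest. Enpp2 encodes autotaxin, the secreted enzyme that makes the signalling lipid lysophosphatidic acid. It was at 768, 274, 1384, 479 and 236 CPM with void and 2720.3, 1922, 2088, 1673 and 1893 CPM with DHT, with no overlap. Sostdc1, a secreted inhibitor of BMP and Wnt signalling, was at 24.8, 3.39, 50.8, 8.45 and 3.36 CPM with void and 149.9, 67.1, 86.7, 69.5 and 75.8 CPM with DHT. Its groups did not overlap either, and DHT replicate 1 stood well above the other 4 DHT mice. Kl encodes klotho, a co-receptor for FGF23 that is also shed into the fluid. Klotho transcripts were at 93.9, 23.8, 168, 45.8 and 35.8 CPM with void and 375, 241, 256, 203 and 253 CPM with DHT. For Kl the lowest void mouse was replicate 5 rather than replicate 11.

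Both receptors among the markers showed a wide void range. Folr1, the folate receptor that moves folate across the epithelium, was at 10.99, 1.28, 23.02, 3.80 and 0.599 CPM with void and 48.9, 30.4, 31.3, 36.6 and 36.1 CPM with DHT. The lowest of these values, in void replicate 11, rested on 20 counts. Folr1 had the widest void range of the 10 markers, 38.4-fold, and its groups did not overlap. Prlr, the prolactin receptor, was at 65.7, 6.65, 102, 26.5 and 9.32 CPM with void and 270.5, 221, 151, 93.0 and 112 CPM with DHT. Void replicate 9 lay above DHT replicate 5, so the groups overlapped. Prlr also had the widest range among DHT mice, 2.91-fold, with replicates 1 and 2 high and replicates 5 and 6 low.

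Otx2, a homeodomain transcription factor needed for choroid plexus formation and upkeep, was at 7.65, 2.24, 16.9, 3.47 and 1.53 CPM with void and 36.9, 23.1, 30.2, 22.3 and 24.4 CPM with DHT. Calml4, a calmodulin-like light chain of brush border myosin, ranged from 1.17 to 8.90 CPM with void and from 10.3 to 22.05 CPM with DHT. Neither gene overlapped between groups, although the gap for Calml4 was narrow.

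The claudins, which form tight junction strands, differed from each other. Cldn2, a claudin of leaky epithelia that makes pores for cations and water, was at 8.24, 1.05, 18.6, 3.17 and 1.05 CPM with void and 43.1, 28.7, 33.0, 24.2 and 28.0 CPM with DHT. Cldn1, a sealing claudin found in many epithelia, was at 6.49, 7.51, 11.1, 5.24 and 4.34 CPM with void and 22.1, 15.0, 21.3, 14.5 and 11.9 CPM with DHT. Void mice spanned 17.8-fold for Cldn2 and only 2.56-fold for Cldn1. Neither claudin overlapped between groups, although the highest void mouse and the lowest DHT mouse were close for Cldn1.

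The order of the void mice was nearly the same for every marker. Void replicate 9 was the highest void mouse for 10 of 10 markers, void replicate 4 the second highest for 9 and void replicate 10 the third highest for 9. The lowest was void replicate 11 for 8 markers and void replicate 5 for the other 2, Kl and Prlr. Among DHT mice, replicate 1 was the highest for 10 of 10 markers and replicate 5 the lowest for 6. Void replicate 9 reached between 63.7% (Folr1) and 85.1% (Ttr) of the median DHT level, and void replicate 4 between 28.7% (Cldn2) and 43.5% (Prlr).

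The spread within a group was larger with void for 10 of 10 markers. The SD of log2 CPM within the void group ranged from 0.52 for Cldn1 to 2.11 for Folr1, with a median of 1.54 over the markers. Within the DHT group it ranged from 0.19 for Ttr to 0.65 for Prlr, with a median of 0.32. Over all 17622 genes tested, the median SD was 0.16 with void and 0.19 with DHT. Among the 14836 genes with a mean of at least 1 CPM, 4.11% varied more between void mice than Cldn1 did, and 0.452% varied more than the median marker.

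Per kilobase of exon, Ttr was the most abundant marker, at 415 CPM per kb with void and 1281 with DHT on average, followed by Enpp2 (109 and 356), Sostdc1 (10.2 and 50.4) and Kl (7.88 and 28.5). The first 8 places were in the same order in both groups, and only Calml4 and Cldn1 changed places at the bottom. Within the DHT group, the ranges of Ttr and Enpp2 were apart from each other and from those of all lower markers, and Kl was apart from Folr1, whereas Sostdc1 and Kl overlapped and so did each pair of neighbours from Folr1 downwards. With void, Enpp2 and Sostdc1 were the only neighbours in this order with ranges apart from each other. Lengths were taken from GENCODE M21 and may differ from the annotation the counts were made with.

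The fitted log2 fold change of DHT over void was positive for 10 of 10 markers, with a median of 1.94, against a median of 0.01 over all genes tested. It was 2.30 for Sostdc1 (standard error 0.64), 2.28 for Cldn2 (0.62), 2.20 for Folr1 (0.67), 2.10 for Otx2 (0.51) and 2.01 for Prlr (0.64). Lower values were found for Calml4 at 1.87 (standard error 0.47), Kl at 1.85 (0.44), Enpp2 at 1.71 (0.41), Ttr at 1.63 (0.68) and Cldn1 at 1.29 (0.25). Cldn1 thus had the smallest fold change and the smallest error, and Ttr, the most abundant marker per length, the largest error. The fitted values follow group means, which void replicate 9 raises. The difference in mean log2 CPM over the markers was 2.48, with the void group at 4.11 ± 1.43 and the DHT group at 6.60 ± 0.31 (SD, n = 5 each).

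A gene counted as called when edgeR's quasi-likelihood test gave it an adjusted p (Benjamini-Hochberg, over all genes tested) under 0.05 and its log2 fold change passed 1. By this rule 2.17% of all genes tested were called higher and 2.19% in either direction. With no fold limit, 5.22% were higher and 0.261% lower. Of the markers, 5 were called higher (Kl, Enpp2, Otx2, Calml4 and Cldn1) and 5 were not (Ttr, Folr1, Prlr, Sostdc1 and Cldn2). Because the markers were chosen with this contrast known, nothing is read from that count. Every DHT mouse was above every void mouse for 8 of 10 markers, against 5.39% of all genes tested (0.88% had every DHT mouse below). Without void replicate 9, 10 markers were called. Leaving out 1 other mouse gave 1 called marker (Cldn1) without void replicate 4, 10 or 11 or DHT replicate 1, 3 or 6, and 2 (Kl and Cldn1) without void replicate 5 or DHT replicate 5. Without DHT replicate 2, 4 markers were called.

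**Figure D2:**
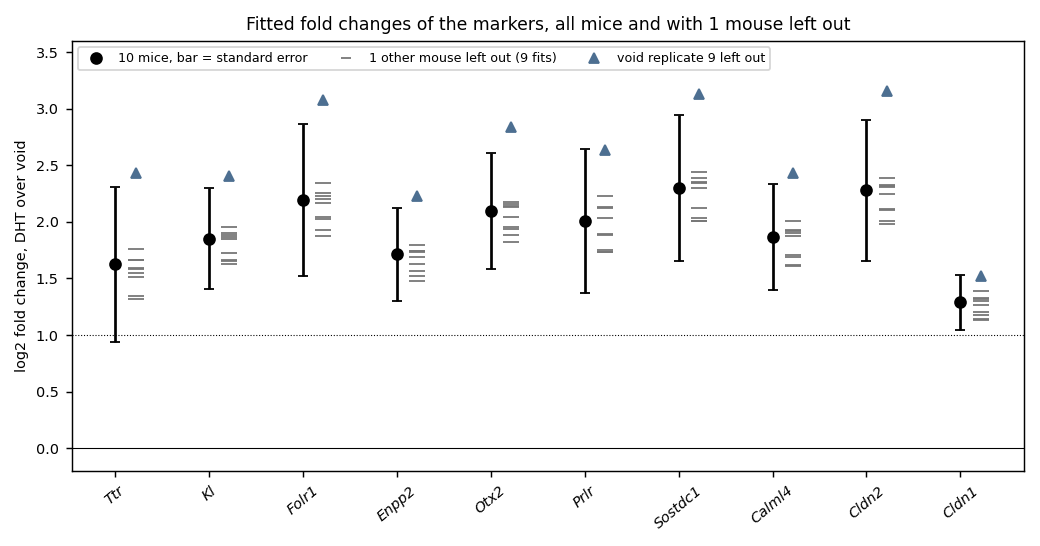
Fitted log2 fold change of DHT over void for each marker with 10 mice (black point, bar = standard error) and with 1 mouse left out (grey dashes, blue triangle for void replicate 9); the dotted line is the fold limit of 1. All values lie between 1.13 and 3.16, and leaving out void replicate 9 gives the highest value for all 10 markers.

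The markers did not all move in the same proportion. Each marker was compared with the mean of the other 9 on the log2 scale within a mouse, which removes a change that all 10 share. Cldn1 departed most from the others: its level relative to them was -1.54 on average with void and -2.83 with DHT. It ranged from -2.80 in void replicate 9 to 0.05 in void replicate 5, where the other markers were low, and from -3.17 to -2.44 with DHT. Enpp2 stood 5.41 above the other markers on average with void and 4.88 with DHT, so its share was also larger where the other markers were low. In the opposite direction, the relative level of Folr1 was -2.41 with void and -1.58 with DHT, and that of Cldn2 -2.51 and -1.83. The relative levels of the groups overlapped for 9 of 10 markers, and those of Cldn2 were apart by a narrow margin, with a highest void value of -1.98 and a lowest DHT value of -1.91. Ttr, Prlr and Otx2 kept a similar place on average. With void and DHT the means were 4.35 and 4.40 for Ttr, 0.63 and 0.77 for Prlr, and -2.19 and -2.05 for Otx2. Single void mice ranged from 3.50 to 4.91 for Ttr and from -0.15 to 1.07 for Prlr.

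Within the DHT group, the relative level of Ttr was higher in replicates 5 and 6 than in replicates 1, 2 and 3, and that of Prlr was lower. This contrast holds for relative levels only: in CPM both genes were highest in DHT replicate 1, at 1728 and 270.5. A relative level also depends on the other markers, and Ttr itself varied little between DHT mice (SD of log2 CPM 0.19). The level of Ttr relative to the other markers was 4.04, 4.33 and 4.13 in DHT replicates 1, 2 and 3 and 4.78 and 4.74 in replicates 5 and 6. The relative level of Prlr was 1.06, 1.44 and 0.70 in replicates 1, 2 and 3 and 0.25 and 0.41 in replicates 5 and 6. Folr1 was placed like Ttr, at -1.68, -1.74 and -1.82 in replicates 1, 2 and 3 and -1.25 and -1.40 in replicates 5 and 6. Differences of this size inside a group of 5 were not tested.

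**Figure D3:**
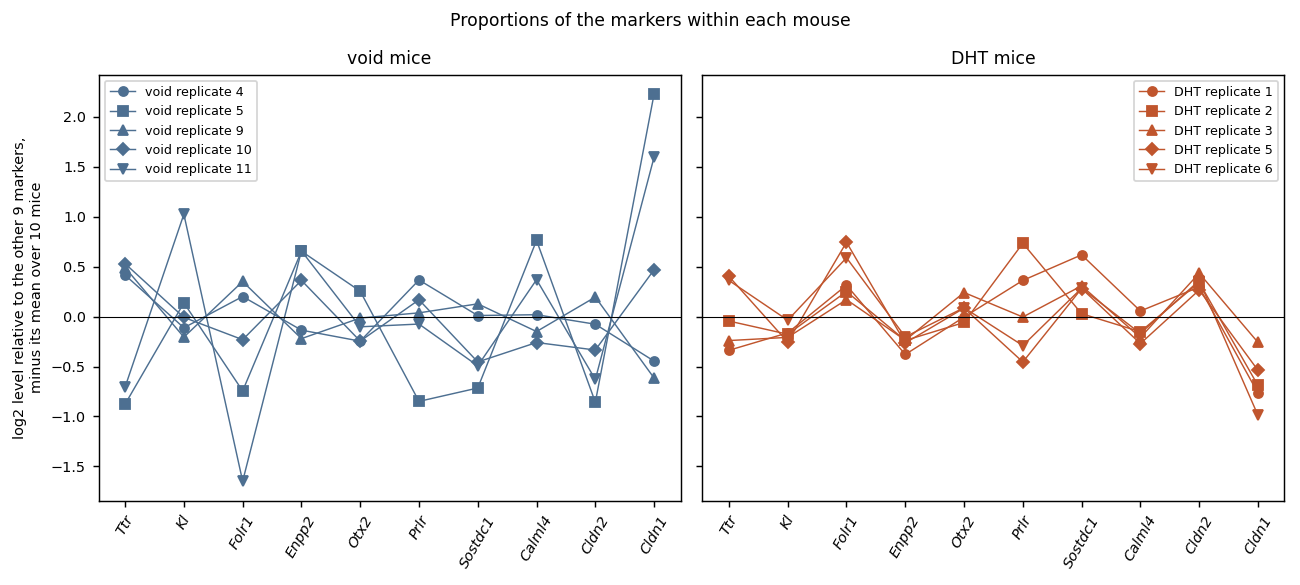
Log2 level of each marker relative to the mean of the other 9 within the same mouse, minus its mean over 10 mice; each line is 1 mouse, void on the left and DHT on the right. Void replicates 5 and 11 depart most from the rest, with a high share of Cldn1 and a low share of Folr1, Ttr and Cldn2, whereas DHT mice lie close together except for Prlr, Ttr, Folr1, Sostdc1 and Cldn1.

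Most pairs of markers had a high correlation over the mice as a whole. After the group means were subtracted, the mean Pearson r over the 45 pairs of markers was 0.889 across the 10 mice (lowest 0.476, highest 0.994), and 0.823 with Spearman correlation. These points share libraries and depth, and the values are descriptive. They weigh void mice most, whose spread was larger, and among DHT mice Ttr and Prlr departed from the other markers as given above. Each marker was also set against the mean of the other 9 in this way. Its r was 0.997 for Enpp2, 0.996 for Cldn2 and 0.994 for Sostdc1, and 0.628 for Cldn1.

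Other genes of the choroid plexus, on lists of transport genes and of further epithelial genes, moved in the same direction. These lists, like those of partner genes and other cell types below, were chosen with earlier results of these data known. Their counts and adjusted p are therefore a description and no independent test. Of the 28 other choroid plexus genes, 28 had a positive log2 fold change, with a median of 2.03. Called higher were 13 of them, against 2.17% of all genes. None was called lower, by edgeR or by DESeq2, and 0 were lower at an unadjusted p under 0.05, while 27 were higher at that limit. Called among the transport genes were Clic6, an intracellular chloride channel protein (27.9 ± 28.3 CPM in void mice, 125 ± 33.1 in DHT mice), Slc13a4, a sulfate transporter (16.9 ± 9.34 and 45.4 ± 8.24), and Trpm3, a cation channel (211 ± 39.5 and 462 ± 83.7; SD, n = 5 each). Adjusted p was 0.0416, 0.0214 and 0.00670 in turn (edgeR). The water channel gene Aqp1 averaged 7.81 ± 10.3 CPM under void and 34.0 ± 6.10 under DHT (SD, n = 5 each; edgeR-adjusted p = 0.124), and its groups did not overlap. The number of these 28 genes called was 28 without void replicate 9. It was 5 without void replicate 4, 8 without void replicate 5, 6 without void replicate 10, 4 without void replicate 11 and 2 without DHT replicate 1.

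Among the further epithelial genes, 10 of 18 were called higher: F5, Tmem72, Krt8, Col8a1, Abca4, Lmx1a, Ace, Msx1, Wfikkn2 and Cab39l. Coagulation factor V (F5) averaged 17.2 ± 17.8 CPM under void and 111 ± 34.1 under DHT (SD, n = 5 each). This was 2.68 ± 0.58 higher on the log2 scale (fit ± SE, edgeR-adjusted p = 0.0214). Ace, which encodes angiotensin-converting enzyme, was 2.04 ± 0.40 higher on that scale (edgeR-adjusted p = 0.0133). The transcription factor genes Lmx1a and Msx1, which mark the developing choroid plexus, were 2.09 ± 0.43 and 1.57 ± 0.37 higher (edgeR-adjusted p = 0.0170 and 0.0283). After subtraction of group means, 20 of the 28 genes followed the mean of the 10 markers with r above 0.9 over 10 mice, among them Clic6 (0.997), F5 (0.995) and Kcnj13 (0.994). Of the called genes, Wfikkn2 (r = -0.173) and Slc13a4 (0.378) were farthest from this.

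Genes that act with the markers changed less. Of 62 listed partner genes, 56 were tested, with a median log2 fold change of 0.28. Called higher were 3, among them Bmp6 and Tjp3 (2.17% of all genes), and 6 without void replicate 9. Called lower were 0 by edgeR's quasi-likelihood test and 0 by DESeq2 (0.0227% of all genes). At an unadjusted p under 0.05, 29 were higher and 2 lower. With an edgeR-adjusted p under 0.05 and no fold limit, 12 were higher and 1 lower, against 5.22% and 0.261% of all genes.

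For transthyretin, the list held genes of thyroid hormone and retinol handling. The most abundant of the list, Thra, a thyroid hormone receptor gene, was at 586 ± 34.3 and 593.5 ± 99.0 CPM (edgeR-adjusted p = 0.964), and Dio2, which activates thyroid hormone, at 85.4 ± 6.88 and 78.4 ± 16.7 CPM (edgeR-adjusted p = 0.714). Rbp4, the plasma retinol carrier that binds transthyretin, was at 5.36 ± 0.864 and 4.67 ± 0.909 CPM (adjusted p = 0.610, edgeR). The thyroid hormone receptor Thrb had a log2 fold change of -0.26 (adjusted p = 0.0292, edgeR), short of the fold limit.

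For klotho and autotaxin, no partner passed both limits in edgeR's test, and DESeq2 called 0 in each list. At an unadjusted p under 0.05, 2 of the 4 klotho partners tested were higher and 1 was lower, and 3 of the 10 autotaxin partners were higher. The FGF receptor genes Fgfr1, Fgfr3 and Fgfr2 had log2 fold changes of 0.23, -0.01 and 0.31 (adjusted p = 0.255, 0.961 and 0.0409, edgeR). Plpp3, which degrades lysophosphatidic acid, was at 289 ± 27.8 and 307 ± 28.6 CPM, and Lpar1, a receptor of this lipid, at 41.0 ± 3.76 and 45.1 ± 1.55 CPM (SD, n = 5 each; adjusted p = 0.690 and 0.322, edgeR). No folate gene passed both limits either (0 by edgeR, 0 by DESeq2, 4 of 8 higher at an unadjusted p under 0.05). Ggh, which trims the glutamate tail of folates, was at 13.9 ± 2.06 and 21.4 ± 3.21 CPM (SD, n = 5 each; edgeR-adjusted p = 0.0148), short of the fold limit. Mthfd1, an enzyme of folate interconversion, was at 44.25 ± 3.36 and 50.6 ± 2.37 CPM (edgeR-adjusted p = 0.109), and the transporter gene Slc46a1 at 7.19 ± 1.82 and 10.1 ± 1.77 CPM (edgeR-adjusted p = 0.131).

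Prolactin itself was present in some void mice. Prl was at 0.148, 6.36, 0.186, 114 and 3.12 CPM in void replicates 4, 5, 9, 10 and 11, and at 0.0546, 0.0987, 0.0419, 0.0299 and 0.506 CPM in DHT replicates 1, 2, 3, 5 and 6. It did not pass the filter on low counts, and void replicate 10 alone held 3084 counts. Growth hormone (Gh), another pituitary gene, named after its values were seen, was at 29.0 CPM in void replicate 10 and at most 2.11 CPM in any other mouse. Whether pituitary tissue contributed to the Prl values was not tested. Void replicate 10 had the middle level of Prlr among void mice. Of the 6 genes of prolactin signalling tested, 0 were called in either direction by edgeR or DESeq2, and at an unadjusted p under 0.05 2 were higher and 0 lower. The kinase gene Jak2 was at 52.7 ± 4.56 and 53.4 ± 6.90 CPM (edgeR-adjusted p = 0.959). Stat5a, a transcription factor activated by the receptor, was 0.85 ± 0.17 higher on the log2 scale with DHT (edgeR-adjusted p = 0.0164), under the fold limit.

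For Sostdc1, 8 genes of BMP and Wnt signalling were listed, with a summed level of 189 to 218 CPM with void and 223 to 280 CPM with DHT. At an unadjusted p under 0.05 (edgeR), 6 were higher and 0 lower. Of these genes, Bmp6 was called. It rose from 11.8 ± 3.94 to 25.8 ± 3.83 CPM (SD, n = 5 each), by 1.13 ± 0.19 on the log2 scale (edgeR-adjusted p = 0.00965). Bmp7, Lrp5 and Lrp6 had adjusted p values of 0.0444, 0.0122 and 0.0416 (edgeR) with log2 fold changes of 0.71, 0.60 and 0.30, under the fold limit. For the claudins, 10 tight junction genes were listed, with a summed level of 398 to 438 CPM with void and 440 to 494 CPM with DHT. At an unadjusted p under 0.05 (edgeR), 7 were higher and 0 lower, and at an adjusted p under 0.05, 2 were higher and 0 lower. The sum followed the choroid plexus markers with r = 0.873 (10 mice, group means subtracted). Tjp3, a tight junction scaffold, was called at 1.40 ± 0.36 higher (edgeR-adjusted p = 0.0418), although its groups overlapped. Cldn5, the claudin of brain capillaries, was at 21.2 ± 3.50 and 19.7 ± 2.84 CPM (adjusted p = 0.750, edgeR), and Cldn11, of myelin, at 111 ± 18.9 and 141 ± 12.7 CPM (SD, n = 5 each; adjusted p = 0.0878, edgeR). Of the relatives of Otx2, only Otx1 passed the filter, at 2.99 ± 0.507 and 4.42 ± 0.722 CPM (SD, n = 5 each; edgeR-adjusted p = 0.0516).

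Markers of neighbouring cell types were read in the same way. Of 69 such genes, 67 were tested, with a median log2 fold change of 0.07. Called higher were 2, Gfap of astrocytes and Igf2 of meninges, and 0 were called lower by edgeR or DESeq2. At an unadjusted p under 0.05, 16 were higher and 1 lower. With an edgeR-adjusted p under 0.05 and no fold limit, 6 were higher and 0 lower, against 5.22% and 0.261% of all genes. The number called higher was 4 without void replicate 9 and 1 without DHT replicate 1. Ependymal cells line the ventricles beside the choroid plexus, and the summed level of their 6 markers was 11.9 to 35.3 CPM with void and 36.7 to 47.9 CPM with DHT. Of these, 5 were tested, all with a positive log2 fold change between 0.44 and 1.10, and none was called by edgeR (3 were higher at an unadjusted p under 0.05, and DESeq2 called 1). Over 10 mice, group means subtracted, their mean followed that of the choroid plexus markers with r = 0.865. Foxj1, the master regulator of motile cilia, was at 9.42 ± 4.62 and 19.2 ± 3.56 CPM (SD, n = 5 each).

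Meningeal markers did not follow the choroid plexus markers. Their summed level was 76.8 to 138 CPM with void and 75.0 to 145 CPM with DHT, their r was -0.69, and 1 of 8 was called, Igf2, at 3.09 ± 1.42 and 9.95 ± 2.66 CPM (SD, n = 5 each; adjusted p = 0.00931, edgeR). Igf2 is also expressed by choroid plexus. The 8 oligodendrocyte markers, a cell type that makes Enpp2 too, were at 3123 to 4303 CPM with void and 3872 to 4174 CPM with DHT, with overlapping groups. Microglial markers summed to 398 to 457 CPM with void and 543 to 779 CPM with DHT, and astrocyte markers to 1499 to 1896 and 1922 to 2936 CPM. Both sums were apart between groups, but within groups neither followed the choroid plexus markers closely (r = 0.20 and -0.10). Of the 5 astrocyte genes only Gfap was called, and Aqp4, Slc1a3, Aldh1l1 and Gja1 each overlapped between groups. Summed levels of endothelial, pericyte, neuron and border macrophage markers overlapped between groups. Striatal and thalamic markers summed to 101 to 134.9 CPM with void and 133.5 to 156 CPM with DHT. These sums overlapped only because void replicate 9 lay above DHT replicate 3. Of the 8 striatal and thalamic genes, 3 had a positive log2 fold change. Ppp1r1b, at 41.7 ± 10.5 and 70.6 ± 10.2 CPM, had an edgeR-adjusted p of 0.0156, under the fold limit (SD, n = 5 each). Against the choroid plexus markers, r was -0.795 for endothelial, -0.754 for neuron, -0.713 for border macrophage and -0.622 for pericyte markers (10 mice, group means subtracted). For striatal and thalamic markers it was -0.25. Gfap was at 431 ± 95.3 and 975 ± 254 CPM (SD, n = 5 each; edgeR-adjusted p = 0.00761). No listed marker was at 0 in every mouse, and the lowest was Mia of ependyma, with means of 0.0189 and 0.0430 CPM. The part of any of these cell types in the levels of the choroid plexus markers was not tested.

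**Figure D4:**
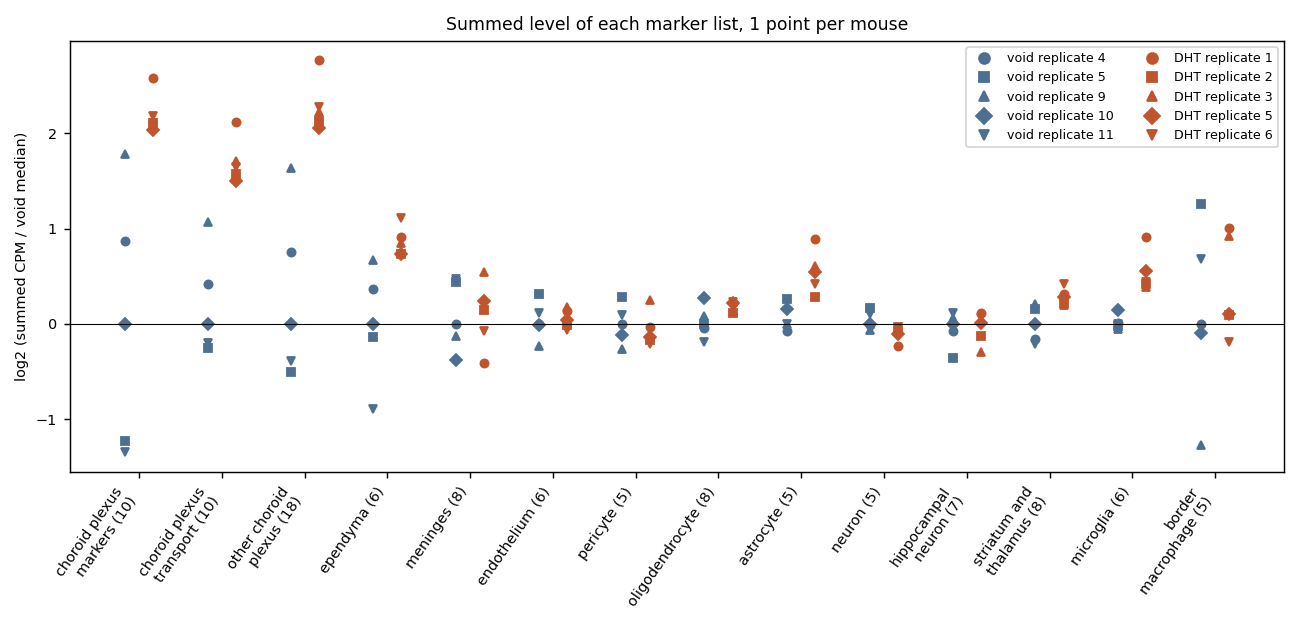
Summed CPM of each marker list in each mouse, as log2 of its ratio to the void median (number of genes in brackets; blue void, orange DHT, 1 symbol per mouse). The 3 choroid plexus lists and the ependymal, astrocyte and microglial lists do not overlap between groups. The 10 markers spread most among void mice, followed by border macrophage markers, which were highest in void replicate 5 and lowest in void replicate 9.

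The genes most like the markers, outside the choroid plexus lists, were sought among 14798 genes with a mean of at least 1 CPM, by Pearson r with the mean of the 10 markers over 10 mice after subtraction of group means. Only 72 of them had r above 0.9, of which 35 were called higher with DHT, against 2.17% of all genes tested. The 10 most alike were Wdr72 (r = 0.994), Tmprss11a (0.992), Prr32 (0.980), Oca2 (0.977), Cltrn (0.976), E230013L22Rik (0.975), Acad8 (0.973), Lrrc23 (0.972), Slc2a12 (0.971) and Amigo2 (0.969). Wdr72 averaged 0.850 ± 0.805 CPM under void and 4.13 ± 1.23 under DHT (SD, n = 5 each; edgeR-adjusted p = 0.0245). Tmprss11a, Prr32 and Slc2a12, a sugar transporter, were called as well, with log2 fold changes of 2.36, 2.40 and 1.89 (adjusted p = 0.0419, 0.0319 and 0.0215, edgeR). Likeness within groups did not require a difference between them: Amigo2 averaged 26.1 ± 4.69 CPM under void and 29.2 ± 2.02 under DHT (SD, n = 5 each; adjusted p = 0.533, edgeR).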

How the data were processed

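Bulk RNA-seq was measured in hippocampi of 10 mice. The authors prepared mRNA libraries from 500 ng of RNA, trimmed reads with HTStream and aligned them with STAR 2.7.10b, and deposited raw counts for each gene. The build is given as mm10 in the methods and as GRCm39 (mm39) in the submitters' processing notes. The annotation release and counting options are not given in the sources used here. Of 56884 identifiers, 51948 had a symbol in GENCODE M21, and 51911 of these carried a later version number in the count table than in M21, so M21 served only for names, exon lengths and overlap of promoter windows with exons.

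Counts were normalized by TMM and tested in edgeR 4.0.16 (R 4.3.3) by the quasi-likelihood test, without covariates, on genes passing edgeR's expression filter. Standard errors (SE) are the size of a log2 fold change over the square root of its F statistic. DESeq2 1.42.0 was an alternative. Levels are TMM-scaled CPM, and log2 CPM has a prior count of 2. Both tools were checked on simulated counts. All pairs of libraries in a group differed beyond sampling noise (chi-square per degree of freedom of at least 8.80). The markers and gene lists were chosen with earlier results of these data known. Named genes are all markers, every called gene of the other lists and otherwise up to 3 abundant ones per list, and the 10 most alike. A called partner gene is not reported here. Aqp1, Kcnj13, Rbp4, Thrb, Cldn5, Cldn11, Slc46a1, Stat5a, Bmp7, Lrp5, Lrp6, Foxj1, Mia, Prl and Gh were added after their values were seen. Claudin protein sequences were not used here.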

Additional observations from a re-analysis of the deposited data

Results flagged for a closer look

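In 68 groups of 5 mice examined, 3 held a mouse whose gap to its nearest neighbour exceeded 0.71 of the range of its group, where chance gives about 3.4. The level of Kl relative to the other markers was highest in void replicate 11 (ratio 0.721). The summed level of the 18 further choroid plexus genes was highest among DHT mice in replicate 1 (ratio 0.744). The summed level of microglial markers was also highest in DHT replicate 1 (ratio 0.724).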

How the results depend on the processing

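No paired analysis was made, because the sample labels record no pairing of void with DHT mice. Replicate number 5 occurs in both groups, but the labels do not say that it marks a pair. Of 150 log2 fold changes of single markers under other settings, 0 reversed, 142 stayed within 1 standard error, and the 8 that did not were all without void replicate 9. Markers called were 9 with no filter beyond 1 count and ranged from 1 to 10 with a mouse left out. DESeq2 called 7 markers. Other choroid plexus genes called were 20 with no filter and ranged from 2 to 28. Over all genes, 382 were called higher and 4 lower. With no fold limit these were 920 and 46, and with a mouse left out they ranged from 175 to 513 and from 0 to 7. Genes called lower were 7 with DESeq2, 8 with no filter and 2 with at least 10 counts in every library. Partner genes called higher were 12 with no fold limit and ranged from 2 to 6. Those called lower were 1 with no fold limit, 1 with no filter, and 0 to 1 with a mouse left out. Markers of other cell types called higher were 4 with no filter, 6 with no fold limit, and 1 to 4 with a mouse left out. The SD of the mean marker level in DHT mice ranged from 0.122 to 0.360, lowest without DHT replicate 1. The difference in mean log2 level (2.12 to 2.96), the void SD and the mean r between markers (0.797 to 0.929) moved less. The cause of these shifts was not tested.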
